A study of Mus musculus with 15 samples.

Results

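Nucleosome positions at fibroblast promoters were compared between alleles recovered through initiating RNA polymerase II and alleles recovered through a histone mark. The 1 library of pol-II S5P ChIP-MNase was set against 1 pooled set for H3K4me1, in which the authors combined 2 replicates. Promoters were retained where the coverage score in the deposited promoter annotation was above 100, which left 13559 of the 25881 annotated transcription start sites (TSSs). Both samples came from 3T3 fibroblasts, an immortalised mouse line, that had received TNF-α (5 ng/ml) 1 h earlier and carried no knock-down. For the spread between libraries, 2 single H3K4me1 libraries of the control cells for BAF knock-down (same TNF-α treatment) and 2 pol-II S7P libraries (same treatment) were read alongside. Ranges over all 10 fibroblast H3K4me1 libraries also take in the non-stimulated pooled set, the 2 non-stimulated control libraries and 4 libraries of cells with Brg1/Brm knock-down, 2 of them non-stimulated and 2 stimulated. Only 1 S5P sample without a replicate number was analysed here, so no test of the difference is possible, and promoters within a library are not replicates of a condition. The study lists biological replicates for every sample kind, S5P included, and the S5P sample may therefore be a single replicate or a pool.

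ChIP-MNase recovers large chromatin fragments with an antibody and digests them with micrococcal nuclease on the beads, so that the remaining DNA marks nucleosomes on the recovered alleles. Phosphorylation of the pol-II C-terminal domain at serine 5 marks polymerase that is initiating or has just left the promoter, whereas H3K4me1 is carried by active, inducible and many silent promoters. In a typical active promoter a nucleosome-depleted region (NDR) lies upstream of the TSS, the −1 and +1 nucleosomes border it, and a regular array follows downstream. The scale here is occupancy divided by the mean of that library over the 13559 promoters, so that 1 is the average bin. The NDR was read from −150 to 0 bp, the −1 nucleosome from −300 to −150 bp and the +1 nucleosome from 50 to 200 bp. The NDR ratio is mean occupancy in the NDR divided by that from −1000 to −500 bp.

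The sequences of 5 NDR windows are shown because the levels of these promoters, given further on, show the kinds of result at single genes. They cover the 150 bp before the TSS on the strand of the gene in mm9, with CG dinucleotides in capitals and also the letters TATAA where all 5 lie between −40 and −20 bp on that strand. Ccl2 and Ccl7 are neighbouring TNF-α-responsive chemokine genes with 2 and 1 CG. Klf6 (an immediate early transcription factor, 13 CG) follows, and then Mrpl49 (a protein of the mitochondrial ribosome, 23 CG) and Rnd1 (6 CG). The search found TATAA in Ccl7 at −31 bp within that stretch and in no other of the 5, against 2.95% of all 13559 promoters.
Ccl2, chr11:81848930-81849079, plus strand: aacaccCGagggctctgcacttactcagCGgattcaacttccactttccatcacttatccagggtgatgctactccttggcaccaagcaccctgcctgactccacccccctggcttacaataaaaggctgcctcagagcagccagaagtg
Ccl7, chr11:81859065-81859214, plus strand: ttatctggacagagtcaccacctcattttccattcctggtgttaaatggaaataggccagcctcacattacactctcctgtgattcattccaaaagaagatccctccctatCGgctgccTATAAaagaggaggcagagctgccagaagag
Klf6, chr13:5860586-5860735, plus strand: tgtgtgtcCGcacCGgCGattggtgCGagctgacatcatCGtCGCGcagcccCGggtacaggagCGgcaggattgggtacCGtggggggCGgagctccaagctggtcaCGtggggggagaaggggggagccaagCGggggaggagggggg
Mrpl49, chr19:6057752-6057901, minus strand: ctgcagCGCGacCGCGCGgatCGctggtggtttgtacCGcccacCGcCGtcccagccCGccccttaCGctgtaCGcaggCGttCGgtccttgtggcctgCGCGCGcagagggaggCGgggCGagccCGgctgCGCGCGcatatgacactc
Rnd1, chr15:98507893-98508042, minus strand: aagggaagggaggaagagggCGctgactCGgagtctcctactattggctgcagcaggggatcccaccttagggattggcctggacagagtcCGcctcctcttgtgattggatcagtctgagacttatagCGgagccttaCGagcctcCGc

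The libraries were filled to a similar extent, with a signal in 81.2% of bins for S5P and 82.0% for pooled H3K4me1, against 63.5% to 80.0% for the control and S7P libraries. Mean occupancy as deposited was 0.973 for S5P and 1.62 for pooled H3K4me1, and it is this difference in overall level that the scaling removes. No promoter was empty in the pooled set, whereas 177 were empty in S5P and between 148 and 198 in each of the 11 single libraries. Of these, 98 were empty in all 11. Of the S5P-empty promoters 162 were of inactive genes and 2 of active genes, so that the level of inactive promoters in S5P includes many zeros. According to the methods of the study H3K4me1 reads were single-end and pol-II reads paired-end, and thus sequencing type and antibody cannot be told apart. The names of the deposited S7P tables mention the first read only, so whether both reads entered the S7P occupancies is not known. All 8 fibroblast markers had expression above the threshold for active genes in the deposited values, against 1 of 8 myeloid markers (Cd74), with Tyrobp listed at 0.

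At the 6397 active promoters, alleles with S5P had an NDR of about the same depth as the pooled H3K4me1 set but taller nucleosomes on each side of it. The NDR ratio was 0.444 in S5P and 0.456 in pooled H3K4me1. Occupancy of the +1 nucleosome was 1.68 in S5P and 1.27 in pooled H3K4me1, which is 32.8% higher. For the −1 nucleosome the values were 1.24 and 1.04, a difference of 19.8%.

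The higher +1 level was outside the spread of every other library examined. The 2 control H3K4me1 libraries had +1 levels of 1.19 and 1.25 (1.22 ± 0.0368 SD, n = 2), and the 10 H3K4me1 libraries lay between 1.13 and 1.29. The S7P libraries had 1.30 and 1.31. The S5P level was thus above all 10 H3K4me1 libraries and both S7P libraries, and the same holds for the −1 nucleosome, where the H3K4me1 libraries reached 1.11 and the S7P libraries 1.13 and 1.12.

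For the NDR, the result depends on which H3K4me1 sample is taken. In the 2 single control libraries the NDR ratio of active promoters was 0.655 and 0.587 (0.621 ± 0.0480 SD, n = 2), and over the 8 single H3K4me1 libraries it lay between 0.529 and 0.699. Both S7P libraries were shallower than the 2 control libraries, at 0.735 and 0.687. The S5P library therefore stood below every single library, while its difference from the pooled set (−0.0117) was smaller than the spread between the control replicates. What in the pooled set goes with its deeper NDR was not tested.

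Across the full profile, the position of the nucleosomes was nearly the same and their height was not. The highest S5P bin of active promoters lay at 145 bp with an occupancy of 2.28, and that of pooled H3K4me1 at 135 bp with 1.61. On the upstream side the −1 peak reached 1.41 at −225 bp in S5P and 1.13 at −235 bp in pooled H3K4me1. The lowest points were 0.358 at −45 bp and 0.407 at −65 bp. From trough to +1 peak, occupancy increased 6.38-fold in S5P, 3.95-fold in pooled H3K4me1, 2.27-fold and 2.84-fold in the control libraries, and 2.24-fold and 2.37-fold in the S7P libraries.

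**Figure D1:**
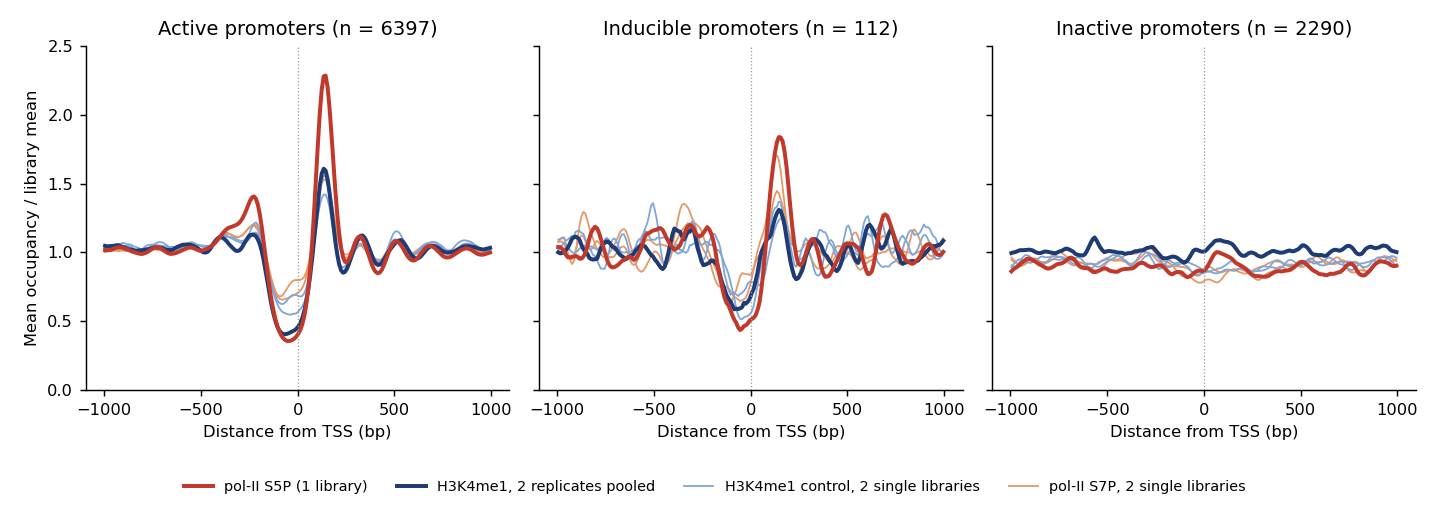
Mean occupancy divided by the library mean (vertical axis) against distance from the TSS in bp (horizontal axis), for active, inducible and inactive promoters. Thick lines are pol-II S5P and pooled H3K4me1 and thin lines are the 2 control H3K4me1 and 2 S7P libraries. At active promoters S5P peaks at 2.28 and pooled H3K4me1 at 1.61, with troughs of similar depth. The control H3K4me1 troughs are shallower (0.626 and 0.549), and inactive promoters show no comparable peak.

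S5P was higher than pooled H3K4me1 in 2 stretches of the active profile. Taking runs of 5 or more bins where the difference between S5P and pooled H3K4me1 was larger than the gap between the control replicates and also than that between the S7P replicates, S5P was higher from −400 to −120 bp (by 0.157 on average) and from 60 to 260 bp (by 0.357). The largest difference was 0.689, at 145 bp, where the gaps between replicates over the whole profile were at most 0.140 for control H3K4me1 and 0.106 for S7P. No such run lay between −120 and 60 bp, in which the NDR falls. In 67 of the 200 bins S5P was lower beyond both gaps, by at most 0.0669 at 385 bp, where the difference was −0.0669.

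**Figure D2:**
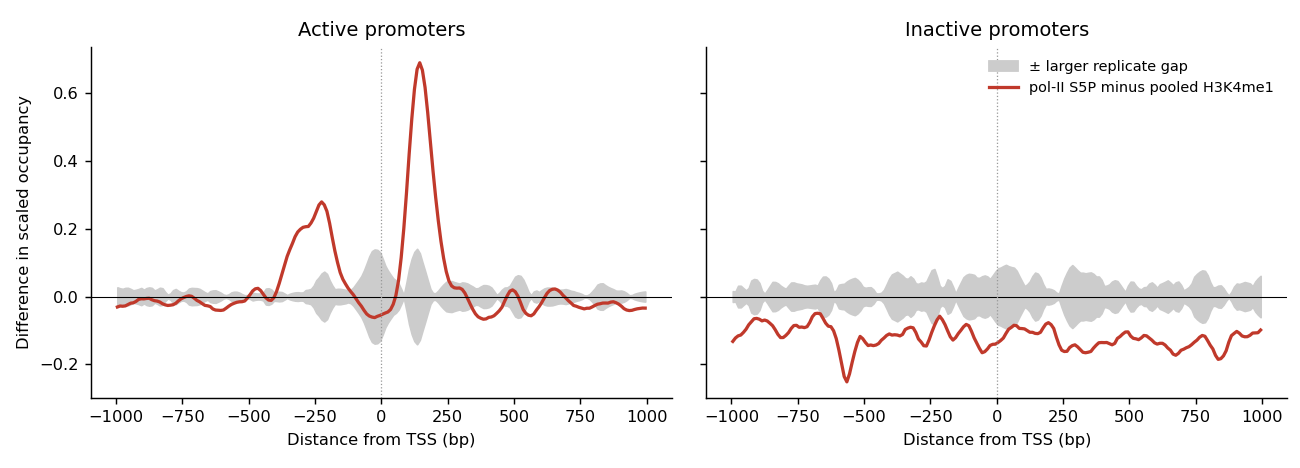
Difference in scaled occupancy, S5P minus pooled H3K4me1 (vertical axis), against distance from the TSS in bp, for active and inactive promoters. The grey band is the larger of the gaps between the 2 control H3K4me1 and between the 2 S7P replicates in each bin. The line leaves the band upwards at the −1 and +1 nucleosomes of active promoters, with a maximum of 0.689 at 145 bp, and lies below the band across nearly the whole profile of inactive promoters.

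Further downstream the libraries were close. The second nucleosome of active promoters peaked at 1.12 in both S5P (325 bp) and pooled H3K4me1 (335 bp), and the drop to the next linker was 0.266 and 0.214, respectively, against 0.118 to 0.154 in the control and S7P libraries. The third peaked at 1.08 and 1.09. A line through the first 5 peaks gave a spacing of 182 bp in S5P, 185 bp in pooled H3K4me1 and 183 to 187 bp in the other 4 libraries, which with bins of 10 bp is not a difference that can be resolved.

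The +1 nucleosome was also more often found at a common distance from the TSS. The highest bin between 50 and 250 bp was determined for each active promoter with a signal there, and its median was 145 bp in all libraries. In S5P 45.2% of 6345 promoters had this summit between 110 and 160 bp, compared with 34.7% in pooled H3K4me1, 30.8% and 31.7% in the control libraries, and 32.6% and 34.3% in S7P. The S5P and pooled H3K4me1 summits lay within 20 bp of each other at 48.5% of 6097 promoters, compared with 33.0% between the 2 control replicates and 43.6% between the 2 S7P replicates. Against the single control libraries the share for S5P was 39.0% and 40.8%. At inactive promoters 20.6% of S5P summits and 21.8% of pooled H3K4me1 summits lay in the same interval.

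Inducible promoters, whose genes respond to TNF-α, had both a taller +1 nucleosome and a lower NDR in S5P. The class holds 112 promoters and was taken from the expression change in the deposited annotation. Mean +1 occupancy was 1.47 in S5P and 1.16 in pooled H3K4me1, against 1.08 and 1.20 in the control libraries and 1.40 and 1.25 in S7P. The NDR ratio was 0.530 in S5P and 0.632 in pooled H3K4me1. The control libraries had 0.711 and 0.630 and the S7P libraries 0.715 and 0.684, so that S5P was lowest of these 6, and it was also below all 10 H3K4me1 libraries, which started at 0.612. The difference to the pooled set was −0.102, against an SD of 0.0573 between the control replicates (n = 2). In bulk samples a smaller share of open alleles and a partial opening of each allele cannot be told apart.

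Inducible promoters were then divided at the median of their nucleosome patterning before stimulation, calculated from the non-stimulated pooled H3K4me1 set, which is not part of the comparison. At the 56 promoters with low patterning the NDR ratio was 0.737 in S5P and 0.841 in pooled H3K4me1, with 0.801 and 0.820 in the control and 0.787 and 0.872 in the S7P libraries. The +1 level of these promoters was 1.24 in S5P and 0.986 in pooled H3K4me1, and 1 S7P library reached the same level (1.23) while the other had 1.05. At the 56 promoters with high patterning the NDR ratio was 0.322 in S5P and 0.420 in pooled H3K4me1, but the 2 control libraries themselves differed more than that (0.620 and 0.432). The S5P minus H3K4me1 difference was nearly equal in the low and high groups (−0.104 and −0.0977). Without promoters that have another TSS within 5 kb, it was −0.147 over 38 promoters with low patterning and 0.0175 over 35 with high patterning, so that the direction in the second group did not hold.

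**Figure D3:**
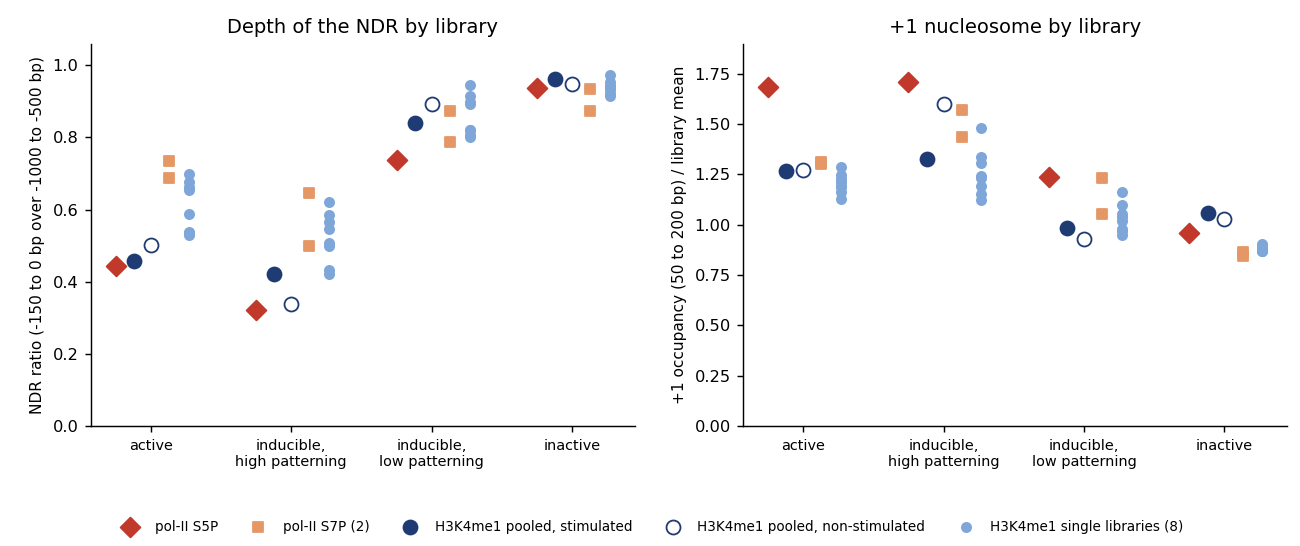
NDR ratio (left, no unit) and +1 occupancy divided by the library mean (right) for each fibroblast library, by promoter class. Diamonds are S5P, squares the 2 S7P libraries, large filled circles pooled stimulated H3K4me1, open circles pooled non-stimulated H3K4me1 and small circles the 8 single H3K4me1 libraries. The inducible groups were split on patterning in the non-stimulated pooled set, so the open circles in those groups are not independent of the split. For active promoters the +1 level of S5P (1.68) stands above all others, and its NDR ratio (0.444) lies beside that of the pooled set (0.456).

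At the 2290 inactive promoters S5P occupancy was lower than pooled H3K4me1 over the whole region, with little structure in either. In 199 of 200 bins S5P was lower beyond the replicate gaps. The NDR ratio was 0.937 and 0.962, and the +1 level 0.961 and 1.06. The 8 single H3K4me1 libraries had +1 levels of 0.868 to 0.905, below both. With each promoter divided by its own mean, which leaves empty promoters out, the +1 difference changed from −0.0953 to 0.0154, so that the direction of this difference depends on the scaling. Inactive promoters inside CpG islands (398) had an NDR ratio of 0.838 in S5P and 0.762 in pooled H3K4me1, with 0.872 and 0.843 in the control libraries and 0.730 to 0.895 over the 10 H3K4me1 libraries, so that S5P was inside their range.

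Among active promoters, the difference at the +1 nucleosome was present in each group examined, and it was wider inside than outside CpG islands. The 4927 promoters in CpG islands had +1 levels of 1.79 in S5P and 1.30 in pooled H3K4me1, whereas the 1469 without had 1.34 and 1.17. The NDR ratio was 0.362 and 0.367 inside CpG islands and 0.719 and 0.756 outside. In the 89 active promoters with TATAA the +1 levels were 1.69 and 1.25 and the NDR ratios 0.494 and 0.576, with widely spread control values of 0.857 and 0.671.

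Promoters with a divergent neighbour, a TSS on the opposite strand within 1000 bp upstream, were also read separately. The 1477 active ones had −1 levels of 1.27 in S5P and 0.995 in pooled H3K4me1, and +1 levels of 1.79 and 1.33. Their NDR ratio was 0.351 and 0.343. For the 3237 active promoters with no other TSS within 5 kb, the −1 levels were 1.25 and 1.06 and the +1 levels 1.69 and 1.26. Tall flanking nucleosomes in S5P were therefore seen with and without a second TSS nearby.

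With active promoters ranked by patterning in the non-stimulated set, the NDR ratios of S5P and pooled H3K4me1 went down together. From the lowest to the highest of 5 equal groups, the ratio was 0.792, 0.576, 0.380, 0.272 and 0.198 in S5P. In pooled H3K4me1 it was 0.802, 0.571, 0.393, 0.294 and 0.224. The +1 level of S5P was 1.26, 1.42, 1.66, 1.93 and 2.15, and that of pooled H3K4me1 was 1.02, 1.09, 1.24, 1.41 and 1.59, so that the difference widened from 0.241 to 0.567. Even the least patterned group had a higher +1 level in S5P than in the control libraries (1.03 and 1.04) and S7P libraries (1.10 and 1.11).

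**Figure D4:**
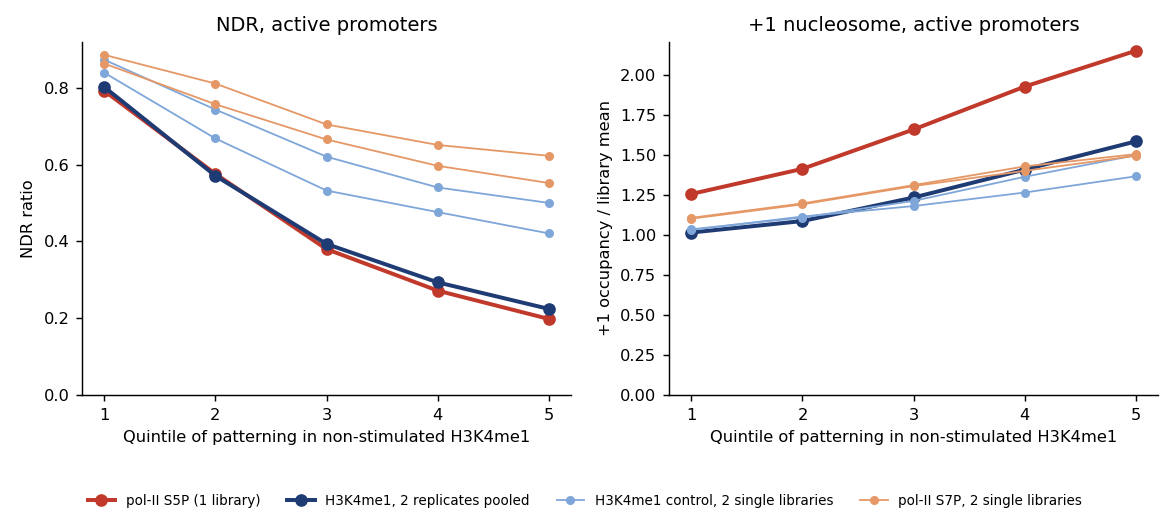
NDR ratio (left) and +1 occupancy divided by the library mean (right) of active promoters in 5 equal groups by patterning in non-stimulated H3K4me1 (horizontal axis, 1 is lowest). Each line is a library. The NDR lines of S5P and pooled H3K4me1 lie on each other, from about 0.80 to 0.22 in the pooled set, while the +1 line of S5P runs above all others, from 1.26 to 2.15.

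The +1 difference was present at all expression levels. Over 5 equal groups of active promoters from low to high expression, +1 occupancy in S5P was 1.58, 1.70, 1.70, 1.73 and 1.71, and in pooled H3K4me1 it was 1.24, 1.27, 1.24, 1.28 and 1.32. The NDR ratio of the most highly expressed group was 0.396 in S5P and 0.438 in pooled H3K4me1. In the least expressed group it was 0.535 and 0.556.

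Promoters just inside and outside the coverage threshold were similar. Over 1048 promoters with scores above 100 and up to 110, the NDR ratio was 0.573 in S5P and 0.595 in pooled H3K4me1, and the +1 level 1.50 and 1.19. For 1176 promoters with scores above 90 and up to 100, the NDR ratios were 0.634 and 0.630 and the +1 levels 1.46 and 1.22.

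At single promoters, the difference at the +1 nucleosome was a shift of the whole active class rather than a change at a few genes. A promoter was called where the log2 ratio of S5P to pooled H3K4me1, with 0.2 added to each, was past 1 in size. Of all promoters 18.7% were called higher and 11.9% lower at the +1 nucleosome, and of active promoters 1482 (23.2%) were higher and 271 (4.24%) lower. Between the 2 control replicates 24.1% of active promoters were past the same fold in one direction and 19.8% in the other, so single calls are within what replicates give. The balance was not, since 69.8% of active promoters were higher at the +1 nucleosome in S5P, whereas the replicate pairs had 47.3% (control) and 48.6% (S7P). The median log2 difference was 0.37 for active, 0.32 for inducible and −0.16 for inactive promoters.

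At the NDR the single-promoter calls against the pooled set were balanced in the active class but not in the inducible and inactive classes. Calls between replicates of 1 kind were also unbalanced in some classes, so the imbalance is not read as a trait of a class. Against the single control libraries the active calls were not balanced, with 31.5% and 24.7% lower and 12.3% and 18.2% higher in S5P. Against the pooled set 18.7% of all promoters were lower and 14.9% higher in S5P. Among active promoters 955 (14.9%) were lower and 989 (15.5%) higher. The control replicates differed by this fold at 46.6% of active promoters in either direction and the S7P replicates at 28.4%, against 30.4% here. Control replicate 1 was lower than replicate 2 at 17.3% and higher at 29.3% of active promoters. At inducible promoters these shares were 12.5% and 25.9%, and at inactive ones 13.6% and 17.2%. Between the S7P replicates they were 14.1% and 14.3% (active), 11.6% and 13.4% (inducible) and 24.2% and 14.6% (inactive). Of the 112 inducible promoters 21 (18.8%) were lower in S5P than in the pooled set, which is the share over all promoters, and 11 (9.82%) higher. Of the inactive promoters 706 (30.8%) were lower and 307 (13.4%) higher, with the empty promoters of S5P among them. The median log2 difference of the inducible class was −0.15. Among the 56 inducible promoters with low patterning 6 were lower and 3 higher, and 20 of 56 were above 0. Between the S7P replicates 21 of these 56 were above 0. For S5P against the single control libraries 27 and 25 were. Across the 6397 active promoters the NDR level of S5P and pooled H3K4me1 had a Pearson correlation of 0.53, compared with 0.31 and 0.32 against the single control libraries, 0.21 between the control replicates and 0.35 between the S7P replicates. This is a description across promoters, which share library and base composition.

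Gene lists were read with 1 TSS for each symbol, over which the median log2 difference of 11613 genes was 0.02 at the NDR and 0.22 at the +1 nucleosome. Of these genes 18.2% were called lower and 14.9% higher at the NDR, and 11.2% lower and 18.9% higher at the +1 nucleosome, against which the counts in each list are to be read. Values of single promoters differ widely between replicates and include many zeros. List members named below were picked mostly for a large NDR difference between S5P and the pooled set. The share of all promoters at which S5P, or the pol-II libraries together, stand apart from the other libraries was not determined.

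Among genes for NF-κB subunits and its feedback regulators, 15 of 20 had high coverage, with 2 called lower and 1 higher at the NDR (median 0.42) and 2 higher at the +1 nucleosome (median 0.05). Nfkbiz, which encodes a nuclear IκB protein, had an NDR occupancy of 0.807 in S5P, whereas it was listed at 0 in pooled H3K4me1 and at 0 and 0.0837 in the controls. The S7P libraries were intermediate at 0.381 and 0.522. Tnip3, a partner of the ubiquitin-editing enzyme A20, had 0.227 in S5P against 1.00 in pooled H3K4me1. Its control values of 0.996 and 0.35 and S7P values of 1.21 and 0.312 spanned nearly the same range. Rela, the p65 subunit, had a +1 level of 2.40 in S5P, 0.50 in pooled H3K4me1, 0.432 and 0 in the controls and 1.10 and 1.61 in S7P.

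Of the chemokine, cytokine and adhesion genes 18 of 20 had high coverage, with 2 called lower and 1 higher at the NDR (median −0.21) and none past the fold at the +1 nucleosome (median 0.48). Ccl7 showed the clearest low NDR in S5P, and its window is printed above. Its NDR occupancy was 0.0949 in S5P and 0.986 in pooled H3K4me1, with 1.15 and 1.01 in the controls and 0.257 and 0.314 in S7P. The log2 difference to the pooled set was −2.01. For Ccl2, next to it on chromosome 11 and one of the genes that the study itself chose on these samples, the values were 0.0863 in S5P, 0.0657 in pooled H3K4me1, 0.510 and 1.58 in the controls and 0.743 and 0.420 in S7P. The controls thus placed Ccl2 in the same direction as Ccl7, whereas the pooled set did not. Ptgs2 (cyclooxygenase 2) was lower than the pooled set (0.161 and 0.655) but not than the controls (0.0374 and 0), with 0.217 and 0.0546 in S7P. Il1b, an inactive gene here that encodes interleukin 1β, had 2.17 in S5P and 0.713 in pooled H3K4me1, with 0.772 and 0.457 in the controls and 0.734 and 1.43 in S7P, so that S5P was highest of the 6.

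Immediate early genes had 16 of 29 promoters with high coverage, of which 4 (25%) were called lower and 1 higher at the NDR (median −0.01) and 5 (31.2%) higher and 1 lower at the +1 nucleosome (median 0.39). Klf6 had no signal in the NDR in S5P, against 0.833 in pooled H3K4me1, 1.21 and 1.05 in the controls and 0.870 and 0.695 in S7P, so that S5P alone of the 6 was at 0. Zfp36, which encodes a factor for decay of cytokine mRNAs, had an NDR of 0.0202 in S5P and 0.445 in pooled H3K4me1, with 0.943 and 0 in the controls and 0.0873 and 0.570 in S7P. Its +1 level was 2.25 in S5P and 0.894 in pooled H3K4me1, but 1 control library had 2.06 (the other 0.626) and the S7P libraries 1.48 and 1.49. With the NDR read from −100 to 50 bp its log2 difference was −0.089 in place of −1.55. Myc had 0.655 in the NDR in S5P and 1.30 and 1.00 in S7P, where pooled H3K4me1 was listed at 0 and the controls at 0.728 and 0.

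Of the 8 lists, the 3 of housekeeping genes held the highest mean +1 levels in S5P. For DNA replication and chaperone genes these were 1.81 and 1.87. Their pooled H3K4me1 levels, 1.54 and 1.65, were also the highest of the 8 lists. For cytosolic ribosomal proteins, 62 of 83 had high coverage, and 15 (24.2%) were called higher and 4 (6.45%) lower at the +1 nucleosome (median 0.31). At the NDR 12 (19.4%) were lower, close to the share over all genes, and 5 (8.06%) higher (median 0.07). Their mean +1 level was 1.83 in S5P and 1.36 in pooled H3K4me1, with 1.35 and 1.26 in the controls and 1.44 and 1.54 in S7P. Several of these genes have processed copies elsewhere in the genome, which makes values of single members uncertain. At the NDR Rpl35a had 0.35 in S5P and 2.19 in pooled H3K4me1, with 0.898 and 0.536 in the controls and 1.29 and 0.794 in S7P. Rps27a had 1.13 in S5P and was listed at 0 in the pooled set, with 0.551 and 0 in the controls and 1.27 and 0.706 in S7P. For Rpl35a S5P was thus lowest of the 6, whereas for Rps27a it was inside the S7P range.

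DNA replication genes had 24 of 35 promoters with high coverage, and 2 were lower and 2 higher at the NDR (median 0.41), with 3 higher and 1 lower at the +1 nucleosome (median 0.20). Lig1 (DNA ligase 1) had an NDR occupancy of 1.10 in pooled H3K4me1 and was listed at 0 in the other 5 libraries. Of the remaining called members, Pola2 (higher) was inside the range of the controls and Rpa1 (higher) inside that of S7P. Gins4, called lower, had 0.0400 in S5P, which was above both controls (0.0142 and 0) and below both S7P libraries (1.71 and 0.243).

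Chaperone genes had 13 of 24 promoters with high coverage, with 4 lower and 2 higher at the NDR (median 0.43) and 3 higher and 2 lower at the +1 nucleosome (median 0.03). The 2 lowest were Hspa1a and Hspa1b, near-identical Hsp70 genes between which reads cannot be assigned with certainty. At the NDR they were listed at 0 in S5P and both controls and had 1.45 and 1.24 in the pooled set. Cct5, of the cytosolic chaperonin, had 0.279 in S5P and 1.32 in pooled H3K4me1, with 0.709 and 0 in the controls and 0.217 and 0.341 in S7P, and from −100 to 50 bp its log2 difference turned from −1.66 to 0.39.

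For fibroblast matrix genes 13 of 27 had high coverage, with 2 lower and 2 higher at the NDR (median 0.05) and 1 higher at the +1 nucleosome (median 0.41), where 11 of 13 were above 0. Col1a1, a chain of type I collagen, had 0.0114 in S5P at the NDR and 0.657 in pooled H3K4me1, with 0.457 and 0.460 in the controls and 0.470 and 0.403 in S7P, so that S5P stood alone below all 5 others. Its +1 level was 1.97 in S5P and 1.25 in pooled H3K4me1, with 1.14 and 1.01 in the controls and 2.17 and 1.74 in S7P. Fn1 (fibronectin) had 0.241 in S5P at the NDR, below the controls (1.38 and 1.598) and S7P (0.993 and 1.05), but the pooled set was listed at 0.

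Myeloid genes, which are not fibroblast genes, served as a contrast. High coverage was found for 21 of 23, with 6 (28.6%) lower and 2 (9.52%) higher at the NDR (median −0.28) and 4 (19%) higher and 5 (23.8%) lower at the +1 nucleosome (median 0.26). The share higher at the +1 nucleosome was close to that over all genes. Ptprc and Itgam, surface proteins of leukocytes, were listed at 0 at the NDR in S5P and had 1.58 and 1.48 in pooled H3K4me1, and for both genes the controls were between 1.14 and 1.74. In S7P Ptprc had 0.246 and 1.602 and Itgam 1.17 and 0.902. Cd86 had 0.00685 in S5P and 1.30 to 1.77 in the H3K4me1 libraries, with 1.54 and 1.32 in S7P. In the other direction Lyz1, a lysozyme gene with the near-identical copy Lyz2 and therefore uncertain, had 2.31 in S5P and was listed at 0 in pooled H3K4me1, with 0.719 and 0.777 in the controls and 0.877 and 2.07 in S7P. H2-Ab1, an MHC class II chain, had 0.974 in S5P and 0.311 in pooled H3K4me1, but 1.07 and 0.807 in the controls. The number of fragments behind these levels is unknown, since the files hold no counts.

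**Figure D5:**
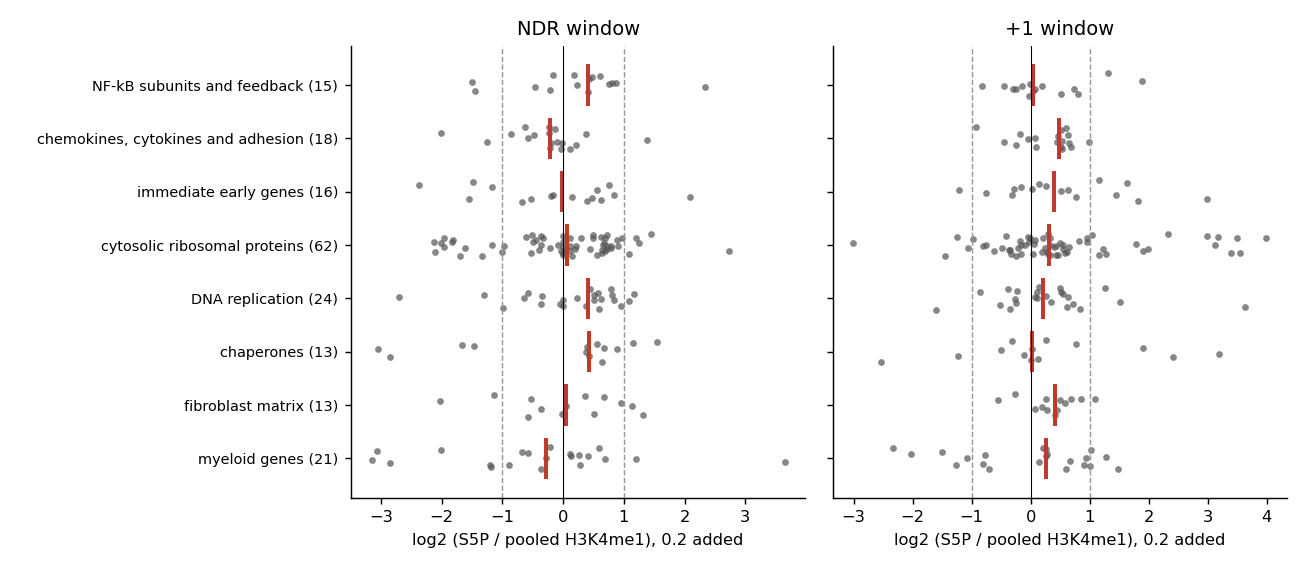
Log2 ratio of S5P to pooled H3K4me1 (horizontal axis, 0.2 added to scaled occupancies) at the NDR (left) and +1 nucleosome (right) for high-coverage members of 8 gene lists, with the number of promoters in brackets. Points are promoters (vertical scatter has no meaning), red bars are medians and dashed lines are the fold for a call. Medians at the +1 nucleosome are at or above 0 in each list, from 0.03 for chaperones to 0.48 for chemokines, cytokines and adhesion, beside 0.22 over all genes.

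The other genes that the study used as examples were not called. Mrpl49 had an NDR occupancy of 0.0698 in S5P, 0.324 in pooled H3K4me1, 0.0166 and 0 in the controls and 0.610 and 0.229 in S7P. Its +1 level was 2.16 in S5P and 1.35 in pooled H3K4me1, with 1.06 and 2.74 in the controls. Mcm5, a subunit of the replicative helicase, had 0.0849 in S5P and was listed at 0 in pooled H3K4me1, but the control replicates had 1.38 and 0 and S7P 1.20 and 1.07. Rnd1 was close to empty at the NDR in S5P (0.0254) and listed at 0 in all 3 H3K4me1 libraries, with 0.213 and 0.545 in S7P.

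Finally, promoters were ranked over 2362 genes with coverage scores above 300 and detectable or inducible expression, requiring the same direction by at least 0.5 in log2 against both control libraries. Of 370 promoters called lower at the NDR 160 met this, and of 275 called higher 66 did. The 2 control replicates differed by the same fold at 357 and 591 of these genes. The lowest 5 were Scn3b, F5, Cnga4, Extl2 and Nat8f4, none in a CpG island, with 0 to 0.0827 in S5P and 1.77 to 2.63 in pooled H3K4me1. All 5 had a higher +1 level in S5P (1.37 to 4.11) than in pooled H3K4me1 (0.368 to 0.580). Among the highest were Trim12c, Ceacam2, Pias2 and Socs2, with 1.27 to 4.06 in S5P and 0 to 0.133 in pooled H3K4me1. Nat8f4, Trim12c and Ceacam2 belong to families of close paralogs, and their values are uncertain where reads could not be placed uniquely. Because they were chosen for their difference, these values describe the extremes and support nothing further.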

How the data were processed

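Per the labels and the methods of the study, the authors aligned reads to mm9 with bowtie (the submitters' processing notes name Bowtie2 and bedtools). Read pairs were kept where they spanned 140 to 180 bp, single reads were extended to the estimated fragment length, and only fragments unique among promoter regions were retained. Their number per 10 bp bin was expressed relative to the 1 kb around it and averaged over 50 bp. The deposited occupancies are thus a signal over 200 bins from −1000 to 1000 bp of each TSS, already oriented by strand and without read counts, so depth is known only through the share of filled bins. Empty cells were read as 0. The deposited promoter annotation also gives a coverage value, an expression score for non-stimulated cells and the authors' log2 change upon TNF-α. The last belongs to the authors' own comparison and was used only to define the inducible class (above 0.35), and no value of it is reported. Promoters were active above an expression of 0.02 times the mean and inactive at 0, leaving out inducible ones. The study's significance criterion for induction was not applied.

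Each library was divided by its mean over the 13559 promoters. Values are means over promoters in fixed windows. Patterning was the sum over bins of the centred, rescaled mean profile of active promoters times the deviation of occupancy from its mean, in the non-stimulated pooled set. A promoter was counted as in a CpG island where, within 200 bp of the TSS, more than 50% of bases were G or C and CG was found at over 0.6 times the frequency its bases predict. Symbols were matched for 96.3% of promoters, and 85.6% of TSSs lay within 50 bp of a start in the annotation of the same build. Named genes were, in each list, up to 4 members with the largest NDR difference and those past the fold, 5 at each extreme of the ranking, and the study's examples, of which a part is given here. Members, gene lists and measures were chosen with earlier results of these data known. No test was made with 1 library on a side. Functions were tested on simulated data. Python 3.11.15, numpy 2.4.6 and pandas 2.3.3 were used. Alternatives were no scaling, scaling by promoter, other coverage thresholds, medians, other windows and pseudocounts, promoters without neighbours, and the control libraries in place of the pooled set. DC libraries were not analysed here. Some items that the rule for named genes selects are not reported here.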

Additional observations from a re-analysis of the deposited data

How the results depend on the processing

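Values are S5P minus H3K4me1, and a value is said to move where it changed by over 1 SD between the 2 control replicates. Dividing by the library mean decides the sign of the +1 difference at active promoters, which was 0.416 and −0.419 as deposited, because the pooled set has the higher overall level. It was 0.358 with each promoter divided by its own mean, 0.516 with medians, 0.525 from 80 to 180 bp, 0.464 against the mean of the control libraries and 0.438 to 0.490 against each of them. The NDR ratio moved with the sample compared, with medians and, for small classes, with the promoters included. Against the mean of the controls it was −0.112 for all, −0.176 for active and −0.0730 for low-patterning inducible promoters. Against each single control it was −0.141 to −0.0842 for all, −0.210 to −0.142 for active, −0.181 to −0.0997 for inducible, −0.0827 to −0.0633 for low-patterning, −0.298 to −0.109 for high-patterning and −0.0369 to −0.00511 for inactive promoters. With medians it was −0.146 for all, −0.209 for inducible, −0.153 for inactive and −0.154 for low-patterning promoters, and from −100 to 50 bp −0.164 for inducible and −0.159 for low-patterning promoters. For low-patterning promoters it was −0.198 at scores above 200, −0.0655 over all promoters and −0.147 without neighbours. For inactive promoters it was −0.0513 with each promoter divided by its own mean, 0.0111 over all promoters and 0.00478 without neighbours, so that its direction did not hold. The +1 difference of inactive promoters was 0.0154 with promoters divided by their own means and −0.0498 over promoters with a signal in both libraries (both chosen after seeing the data).

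Promoters lower at the NDR numbered 4344 as deposited, 1260 at scores above 200 and 1634 with 0.5 added (2538 in the main setting), and 3112 to 3751 against single controls. Those higher numbered 939 at scores above 200, 916 with 0.5 added and 1318 against the control mean (2015 in the main setting), and 1788 to 2495 against single controls. With the window from −100 to 50 bp, also chosen for single genes after seeing the data, 8 named genes changed direction, with log2 differences of 0.39 for Cct5, 1.19 for Cct7, 0.60 for Egr3, 0.30 for Itgax, −0.42 for Rpa1, 0.056 for Rpl15, 0.019 for Rpl27a and 0.35 for Tyrobp. No paired analysis was possible because the S5P sample used here is 1 library without a replicate number, which may be a single replicate or a pool.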
